A study of Mus musculus with 20 samples.

Results

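The clustered protocadherins are cell-surface adhesion proteins of the cadherin superfamily, encoded in tandem gene arrays named alpha, beta and gamma. Each neuron transcribes its own small selection of them, and the proteins, by binding like to like, give a neuron an identity that its own branches recognise. In the olfactory system, loss of these clusters is known to disturb how the axons of sensory neurons spread within their glomeruli in the olfactory bulb. A beta gene consists of a single large coding exon and has no shared constant exons, so beta proteins lack the common cytoplasmic tail of the alpha and gamma proteins. Promoter choice depends on DNA loops made by CTCF and cohesin, and on release from silencing.

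Members were chosen by symbol, as every gene named Pcdha, Pcdhb or Pcdhg with an isoform number in the array's annotation, with 1 probe set per gene. This gave 20 genes of the 19505 named on the array, and all 20 were beta genes, Pcdhb1 to Pcdhb20. In RefSeq's genes of the assembly GRCm38.p6 the 3 arrays hold 58 such genes, of which 14 are alpha, 22 beta and 22 gamma. The alpha and gamma genes and Pcdhb21 and Pcdhb22 were not named in the annotation used and were not analysed here. Whether probe sets for them are among the 2634 without a symbol was not tested. The 20 members had 1 probe set each, all matched that table by Entrez gene ID, and their numbers follow the order in which the genes lie side by side. Beta genes are close relatives in sequence, and how much signal their probes share was not tested.

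RNA came from the olfactory mucosa of S100a5-tauGFP mice, in which the green fluorescent protein (GFP) marks sensory neurons by the activity-dependent S100a5 gene. All 30 mice, of both sexes and 7 to 12 weeks old, carried the reporter and spent 40 h alone in a chamber with clean air at 3.1 L/min. From 26 h on, vehicle mice received pulses of filtered air and odor mice pulses of an odorant, each for 10 s every 20 min. The sample labels name the odorant as an artificial cigarette smoke odor, while the design text of the series names bourgeonal, and the labels were followed. Mice were pooled in threes, and each of the 5 vehicle and 5 odor pools was sorted into GFP+ and GFP- cells, which gave 20 samples in 4 groups of 5. Each sample went onto 1 Clariom S array, and all values are log2 signals. The units compared were the pools of 3 mice, 5 in each condition, so precision rests on few units.

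The GFP+ fractions carried neuron markers at high signal, and the GFP- fractions were mixtures. S100a5 was higher in GFP+ cells by 1.30 (SE 0.36, limma adjusted p = 0.0368) in vehicle pools and by 2.15 (SE 0.36, limma adjusted p = 0.0013) in odor pools, and 7 of 18 alternatives ended the vehicle call. These were quantile normalization (limma adjusted p = 0.0708), leaving out vehicle pool 2, 3 or 5, odor pool 1 or 3, and both pools numbered 5 (limma adjusted p of 0.0531 to 0.158). No alternative ended the odor call. All 10 white blood cell markers were lower in GFP+ cells in both conditions, with a median difference of -7.11 in vehicle pools and -6.74 in odor pools, and 4 of 10 immature neuron markers were lower in each. None of 10 mature sensory neuron markers passed the test in either condition, and the list's mean signal per sample lay between 15.82 and 17.08. All 4 microvillar cell markers were lower in GFP+ cells in both conditions, with medians of -3.68 and -3.58, and 3 of 6 globose basal and cycling markers in vehicle and 4 in odor pools. Of 5 sustentacular cell markers 2 were lower in vehicle and 0 in odor pools, of 6 endothelial and stromal markers 1 in each, and of 5 glial markers 1 and 0. Horizontal basal cell markers were above background in no sample for all 4 genes. Of the arrays, the 4 of replicate 5, 1 in each group, had median signals of 7.03 to 7.46 against 6.06 to 6.39 in the other 16. Vehicle GFP- 1, vehicle GFP+ 2 and odor GFP- 2 correlated least with their groups outside replicate 5, and values without their 3 pools are given where these move a result. In such bulk samples, fewer cells that transcribe a gene and less RNA per cell cannot be told apart.

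Most beta protocadherins gave signals close to the array's background, as did many of all probe sets. The members' median signal lay above that of all probe sets in every sample except vehicle GFP- 1 and odor GFP- 4. Background was taken as the 95th percentile of the 23 background control rows of each array, which was 6.59 to 6.89 in replicates 1 to 4 and 7.29 to 7.78 in replicate 5. Pcdhb1 was above it in 20 of 20 samples, and it alone also exceeded the highest control row in all 20. Another 15 members were above it in some samples, and 4 members, Pcdhb3, Pcdhb10, Pcdhb13 and Pcdhb15, in none. Of those in between, Pcdhb4, Pcdhb9, Pcdhb16 and Pcdhb20 passed in 19 samples, Pcdhb14 and Pcdhb17 in 18, and Pcdhb8 in 16. Pcdhb5 passed in 11 samples, Pcdhb11 and Pcdhb18 in 8, Pcdhb19 in 6, Pcdhb7 in 5, Pcdhb2 in 3, Pcdhb12 in 2 and Pcdhb6 in 1.

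Counted by group, 8 of 20 members were above background in every vehicle GFP+ sample, where 37.4% of all probe sets were. The count was 1 in vehicle GFP- cells against 35.1% of all probe sets, but 7 without vehicle GFP- 1. It was 7 in odor GFP+ cells against 39.9%, and 5 in odor GFP- cells against 37.7%. The control rows themselves varied with base composition. Rows with 8 to 18 G or C bases had mean signals of 2.52 to 4.32, while rows with more or fewer lay at 5.57 to 7.14. Against the highest row of 8 to 18 G or C bases, a limit added after seeing the data, 14 members were above background in all 20 samples and the counts by group were 16, 16, 19 and 18. The base composition of the members' own probes was not used here, so a signal under the limit does not show that a gene was silent.

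**Figure D1:**
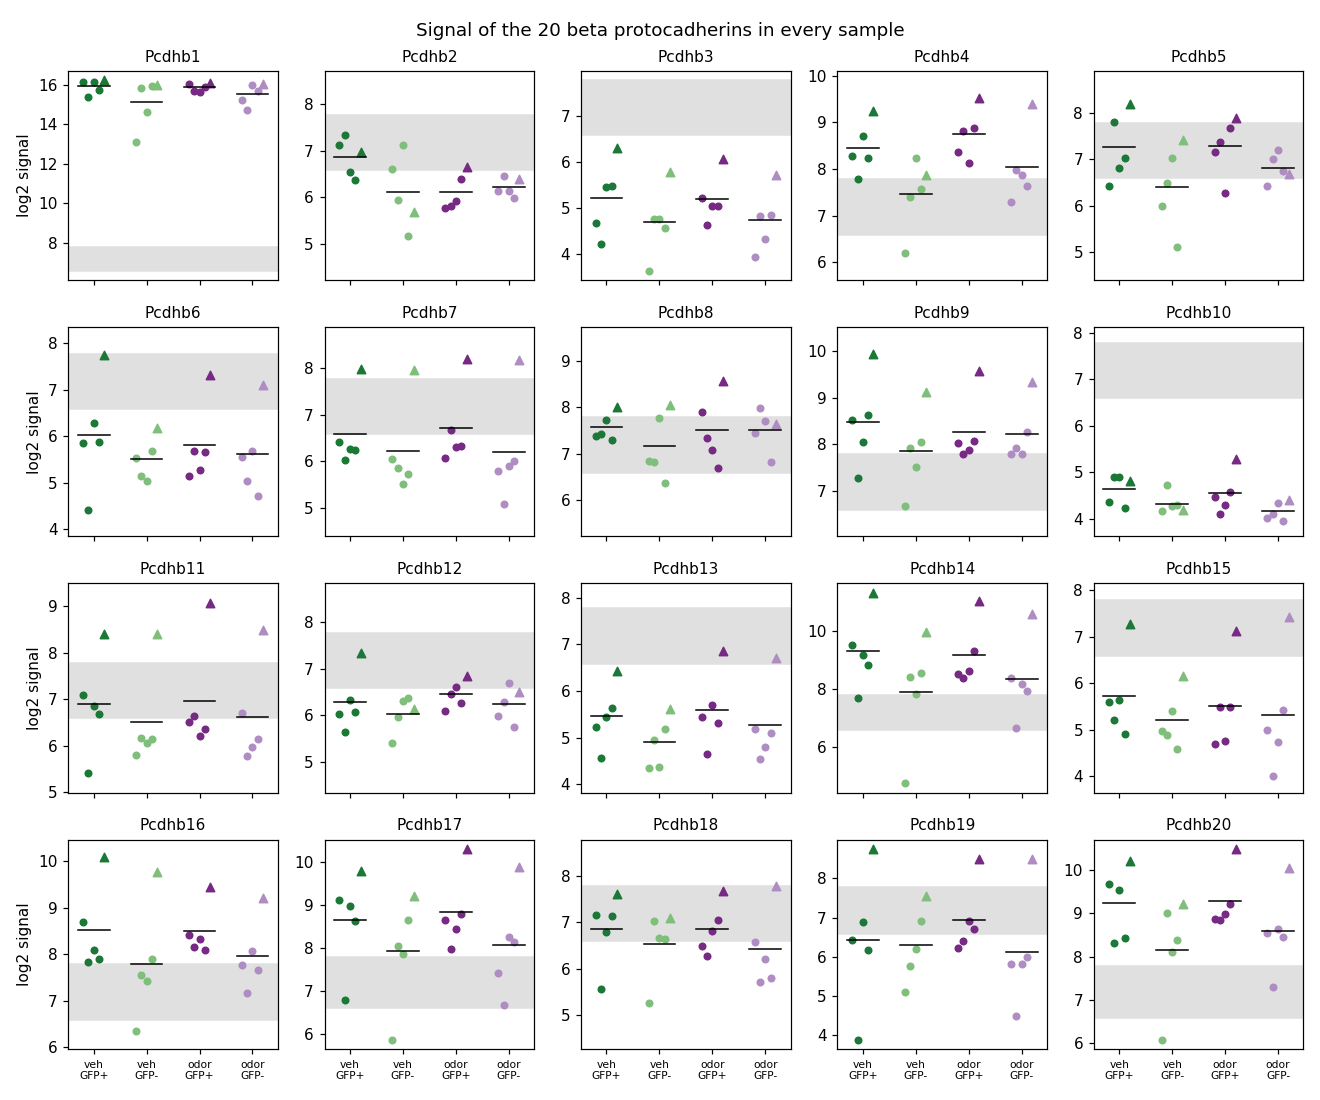
Log2 signal of each of the 20 beta protocadherins in every sample, in 1 panel per gene with its own vertical range. Circles are replicates 1 to 4, triangles replicate 5, black lines group means of 5 samples, and the grey band spans the background limits of the 20 arrays, 6.59 to 7.78. Pcdhb1 lies far above the band in every sample, Pcdhb10 far below it, and the triangles are often the highest points of a group.

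The vehicle pools show how cells with the activity reporter differ from the other sorted cells in clean air. There every beta protocadherin had a higher mean signal in GFP+ than in GFP- cells, but only Pcdhb4 passed the test. Pcdhb4 was higher by 1.00, a 2.00-fold difference. The median difference of the 20 members was 0.54 against 0.09 for all probe sets. The mature neuron markers had a median of 0.45, and the non-clustered protocadherins followed below one of 0.49. The members ranged from 0.11 for Pcdhb19 to 1.41 for Pcdhb14. The count of 1 member called stands beside 9.11% of all probe sets called, 2.26% as higher and 6.86% as lower in GFP+ cells. All 20 estimates were positive, as were 60.5% of those of all probe sets. Without adjustment 8 members had p below 0.05, against 18.1% of all probe sets. When arrays were centred on their medians, the median difference over all probe sets was 0.33 in place of 0.09, and the calls over all of them were 1169 higher and 1211 lower in place of 501 and 1523. The members' median lay 0.45 above that of all probe sets as deposited, a distance that centring cannot change, and 0.52 above it after quantile normalization. All 20 estimates were positive under each of these.

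Pcdhb4, the single member called, measured 8.27, 7.79, 8.72, 8.24 and 9.25 in GFP+ cells of vehicle pools 1 to 5, and 6.19, 7.39, 8.23, 7.58 and 7.87 in GFP- cells. GFP+ was the higher in each of the 5 pools, by 2.08, 0.40, 0.48, 0.66 and 1.38, although the ranges of the fractions overlapped. The group means were 8.45 ± 0.55 and 7.45 ± 0.77 (SD, n = 5), and the difference was 1.00 (SE 0.27, 95% interval 0.42 to 1.59, limma adjusted p = 0.0328). The call rested on which pools were kept. The limma adjusted p was 0.0914 without vehicle pool 1 (difference 0.73), 0.0567 without pool 4 (1.09) and 0.139 without pool 5 (0.91), and it was 0.0964 (0.84) without the 3 pools of the least correlated arrays. Without the pairing of fractions within pools it was 0.305.

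In the other members with large differences the pools did not agree. Pcdhb14 measured 9.51, 7.68, 9.18, 8.81 and 11.31 in vehicle GFP+ cells and 4.74, 8.39, 7.82, 8.54 and 9.96 in GFP- cells. Vehicle GFP- 1 was the lowest sample by far, and in pool 2 the GFP- cells were the higher. The difference of 1.41 (SE 0.56) did not pass (limma adjusted p = 0.187), and was 0.57 without pool 1, 1.94 (limma adjusted p = 0.0407) without pool 2 and 0.99 (limma adjusted p = 0.0557) without the 3 pools of the least correlated arrays. Pcdhb20 measured 9.67, 8.30, 9.54, 8.44 and 10.21 in GFP+ cells and 6.09, 9.01, 8.10, 8.39 and 9.20 in GFP- cells. Its difference was 1.07 (SE 0.46, limma adjusted p = 0.222), and again pool 1 had the widest gap, 3.59, and pool 2 the opposite sign, -0.71. It was 0.45 without pool 1, 1.52 (limma adjusted p = 0.0424) without pool 2 and 0.83 without the 3 pools.

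Pcdhb17 also had its widest gap in pool 1 and the opposite sign in pool 2, with 9.12, 6.79, 8.98, 8.64 and 9.80 in GFP+ cells and 5.86, 8.05, 7.85, 8.66 and 9.21 in GFP- cells. Its difference was 0.74 (SE 0.46, limma adjusted p = 0.479), and 0.11 without pool 1, 1.24 without pool 2 and 0.56 without the 3 pools. Pcdhb5 and Pcdhb2, added after their values were seen, were laid out otherwise. Pcdhb5 differed by 0.85 (SE 0.33, limma adjusted p = 0.174), with pool differences of 0.44, 1.31, -0.20, 1.91 and 0.77. Pcdhb2 differed by 0.76 (SE 0.28, limma adjusted p = 0.146), with 0.52, 1.39, -0.59, 1.21 and 1.29, so in both pool 3 was the one with the opposite sign. Pcdhb2 was called without pool 3 (1.10, limma adjusted p = 0.0157) and with centred arrays (1.00, limma adjusted p = 0.0441). Pcdhb1, the member above background in every sample, measured 16.13, 15.37, 16.13, 15.75 and 16.22 in GFP+ cells and 13.12, 15.82, 14.64, 15.94 and 16.00 in GFP- cells. The GFP+ samples of Pcdhb1 lay close together at 15.92 ± 0.36, while the GFP- samples spread at 15.10 ± 1.24 (SD, n = 5). Its difference was 0.82 (SE 0.41, limma adjusted p = 0.336), with pools 1 and 3 at 3.01 and 1.49 and the other pools between -0.45 and 0.22. It was 0.27 without pool 1 and 0.51 without the 3 pools.

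Counted by pool, all 20 members were higher in GFP+ cells in vehicle pool 1, and 8, 17, 14 and 19 in pools 2 to 5. Their median differences were 1.16, -0.42, 0.67, 0.39 and 0.79, while the medians of all probe sets in these pools lay between -0.06 and 0.08. The mature neuron markers moved alongside in part, with list medians of 1.09, -0.31, 0.59, -0.18 and 0.19 in the same pools, and their part in the result was not tested. Immature neuron markers had list medians of 1.14, -1.14, -0.41, -1.43 and -0.93, and white blood cell markers between -7.76 and -6.87 in every vehicle pool. Pools 1 and 2 hold vehicle GFP- 1 and vehicle GFP+ 2. Leaving out these pools and odor pool 2 gave a median of 0.56 over the members and 0 members called. Of all 22206 probe sets 570 were then called higher and 1685 lower. Leaving out vehicle pool 2 alone gave 5 members called, which were Pcdhb4, Pcdhb9, Pcdhb13, Pcdhb14 and Pcdhb20. That setting called 786 of all 22206 probe sets higher and 1530 lower. Leaving out vehicle pool 1 gave 0 members and a median of 0.36, beside 525 of all probe sets called higher and 1717 lower.

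In odor pools the beta protocadherins again had mostly higher signals in GFP+ cells, and none passed the test. The 0 members called stand beside 7.89% of all probe sets, 2.07% called as higher and 5.82% as lower. The median difference was 0.41 against 0.08 for all probe sets, with 18 of 20 estimates positive against 60.8% of all. The mature neuron markers had a median of 0.42, and the non-clustered protocadherins one of 0.14. The members ranged from -0.11 for Pcdhb2 to 0.82 for Pcdhb14 and Pcdhb19. By limma without adjustment 2 members, Pcdhb4 and Pcdhb7, had p below 0.05, against 16% of all probe sets. Pcdhb2 and Pcdhb8, the members with a negative estimate, were at 0.024 and 0.0065 after quantile normalization and at 0.10 and 0.20 after centring.

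Pcdhb4 measured 8.36, 8.82, 8.12, 8.89 and 9.53 in GFP+ cells of odor pools 1 to 5 and 7.28, 7.98, 7.87, 7.63 and 9.40 in GFP- cells. GFP+ was again the higher in each pool, by 0.13 to 1.25, with overlapping ranges. The difference of 0.71 (SE 0.27, 95% interval 0.12 to 1.29) had a limma adjusted p of 0.18. With array weights, which were estimated on the pool differences, the limma adjusted p was 0.0298. Pcdhb7 measured 6.07, 6.67, 6.32, 6.33 and 8.19 in GFP+ cells and 5.80, 5.08, 5.91, 6.01 and 8.18 in GFP- cells. These signals were under the background limit except in 1 sample of replicates 1 to 4 and in replicate 5, and the difference of 0.52 (SE 0.23) had a limma adjusted p of 0.291.

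Pcdhb14 stood at 8.50, 8.37, 8.62, 9.31 and 11.01 in GFP+ cells and at 8.37, 6.65, 8.17, 7.93 and 10.56 in GFP- cells of the odor pools. Its GFP+ samples were the higher in every pool, by 0.82 on average (SE 0.56, limma adjusted p = 0.575). Pcdhb20 and Pcdhb17 were also higher in all 5 odor pools, by 0.68 (SE 0.46) and 0.76 (SE 0.46). Pcdhb1 measured 15.86 ± 0.22 (SD, n = 5) in GFP+ and 15.53 ± 0.55 in GFP- cells, a difference of 0.33 (SE 0.41). By pool, 15, 16, 13, 18 and 18 of 20 members were higher in GFP+ cells, with medians of 0.29, 0.74, 0.20, 0.47 and 0.25. Mature neuron markers had list medians of 0.38, 0.46, 0.14, 0.26 and 0.11 in these pools, and their part was not tested.

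The direction in every pool was counted over both conditions. In vehicle pools 3 members, Pcdhb4, Pcdhb7 and Pcdhb15, were higher in GFP+ cells in 5 of 5 pools, beside 5.64% of all probe sets. In odor pools 8 members were, beside 14.1%, namely Pcdhb4, Pcdhb7, Pcdhb13, Pcdhb14, Pcdhb16, Pcdhb17, Pcdhb19 and Pcdhb20. Pcdhb4 and Pcdhb7 were higher in 10 of 10 pools, as were 2.77% of all probe sets. For no member did every GFP+ sample exceed every GFP- sample in either condition, which held for 0.829% of all probe sets in vehicle and 1.04% in odor pools.

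**Figure D2:**
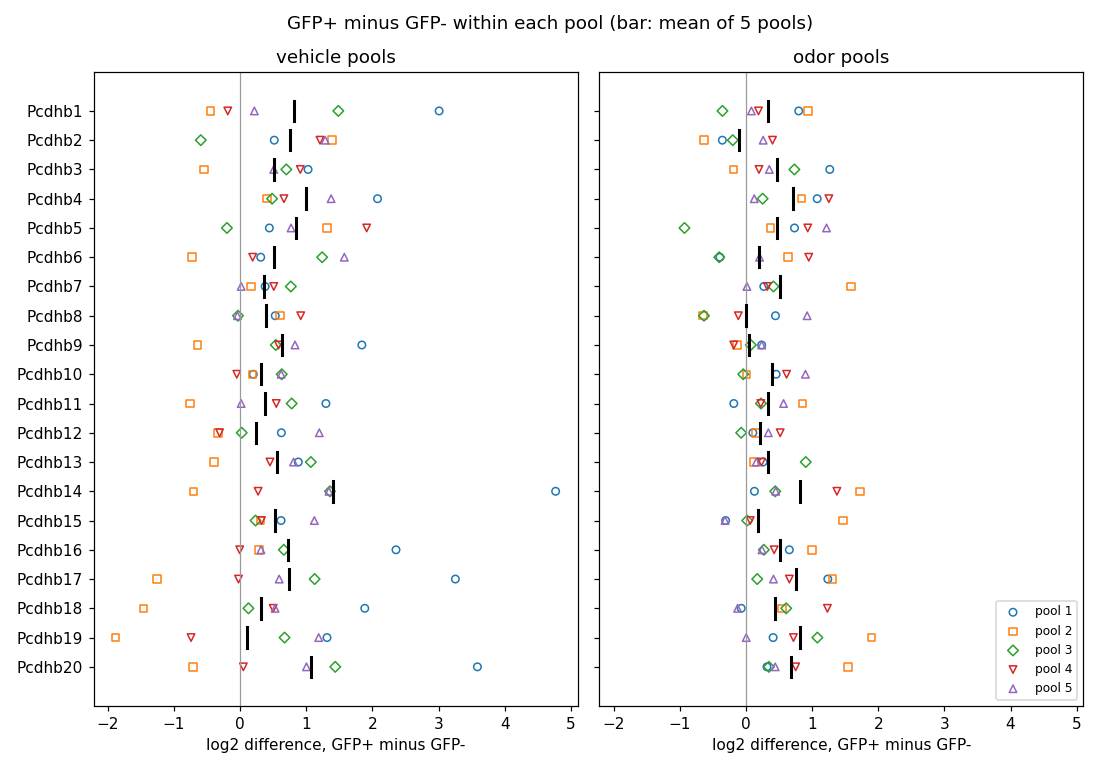
GFP+ minus GFP- log2 difference of each beta protocadherin within each pool, for vehicle pools on the left and odor pools on the right. Symbols are the 5 pools and black bars their mean. In vehicle pools the circles of pool 1 reach 4.77 for Pcdhb14 while the squares of pool 2 fall to -1.88 for Pcdhb19, and all 20 mean bars lie to the right of 0.

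**Figure D3:**
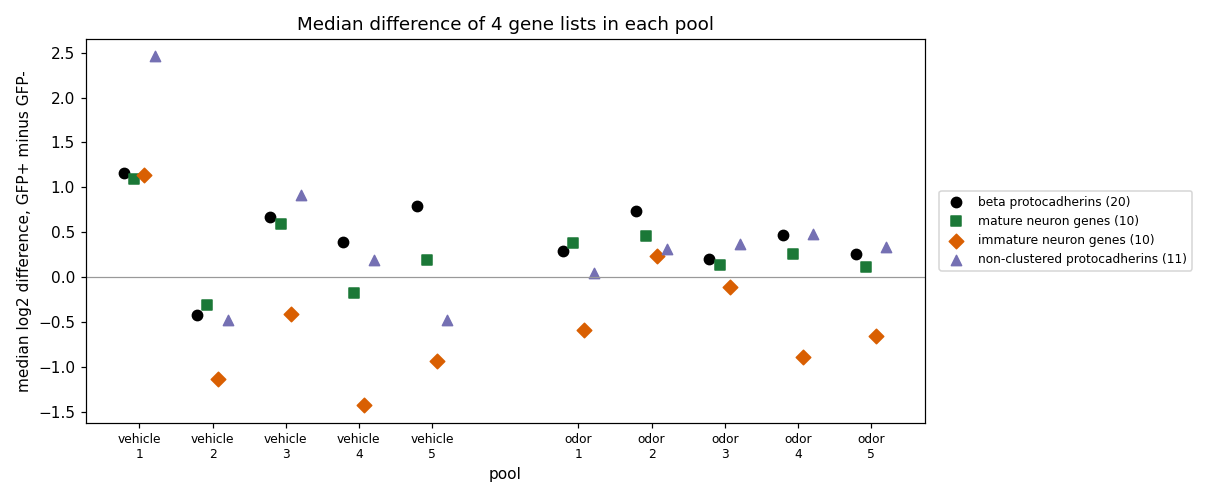
Median GFP+ minus GFP- log2 difference in each pool for the 20 beta protocadherins and 3 other gene lists, with the number of genes in parentheses. The beta protocadherins run from -0.42 in vehicle pool 2 to 1.16 in vehicle pool 1, the pools in which the mature neuron genes also reach their lowest and highest medians, -0.31 and 1.09. Vehicle pool 1 is also the highest for the immature neuron genes, 1.14, and the non-clustered protocadherins, 2.46. Their lowest medians are -1.43 in vehicle pool 4 and -0.48 in vehicle pool 5.

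Whether odor changed the difference between fractions was tested on the same pool differences, and no beta protocadherin passed. With limma 0 members were called, beside 0% of all probe sets, and 0 members had an unadjusted p below 0.05, against 1.21% of all. The median over the members was -0.26, against 0.01 for all probe sets, with 15 members negative and 5 positive, but it was 0.06 without vehicle pool 1. Pcdhb2 had the smallest p. Its sort difference was 0.76 in vehicle and -0.11 in odor pools, a change of -0.87 (SE 0.40, 95% interval -1.74 to 0.0004, limma adjusted p = 1.0). Pcdhb9 went from 0.63 to 0.05, a change of -0.58 (SE 0.39), and Pcdhb19 from 0.11 to 0.82, a change of 0.71 (SE 0.59). The 95% intervals of the 20 changes had median bounds of -1.13 and 0.70. The widest reached down to -2.31 for Pcdhb14 and up to 1.99 for Pcdhb19.

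Within GFP+ cells, no beta protocadherin passed the test of odor against vehicle. The 95% intervals of the 20 differences had median bounds of -0.91 and 0.94. They reached down to -1.58 for Pcdhb14 and up to 2.16 for Pcdhb19. With limma 0 members were called, beside 0% of all probe sets, and 10 estimates were positive and 10 negative. Their median of -0.0073 moved between -0.25 and 0.27 as single samples were left out. The median of all probe sets moved too, from -0.16 without odor GFP+ 5 to 0.21 without vehicle GFP+ 5. Only Pcdhb2 had an unadjusted p below 0.05, against 0.275% of all probe sets. It measured 7.13, 7.34, 6.54, 6.37 and 6.98 in vehicle and 5.78, 5.82, 5.93, 6.39 and 6.65 in odor GFP+ cells. The vehicle samples were mostly the higher, yet the groups overlapped and 17 of all 20 samples were under the background limit. Its difference was -0.76 (SE 0.28, 95% interval -1.37 to -0.14, limma adjusted p = 1.0). Pcdhb4 differed by 0.29 (SE 0.34) and Pcdhb19 by 0.52 (SE 0.75). Pcdhb19 was at 3.89 in vehicle GFP+ 2, its lowest sample, and its difference was -0.18 without the 3 pools of the least correlated arrays, while that of Pcdhb4 was -0.011.

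Within GFP- cells 16 members were higher and 4 lower under odor by their estimates, with a median of 0.16 against 0.02 for all probe sets. With limma 0 were called, beside 0% of all probe sets, and 0 had an unadjusted p below 0.05, against 0.135% of all. Vehicle GFP- 1, in which 2 of 20 members were above background, lies in this comparison. The median was 0.04 without the 3 pools of the least correlated arrays, -0.07 without vehicle GFP- 1 and -0.12 without odor GFP- 5, so its sign rested on single samples. The median of all probe sets moved too, to -0.07, -0.05 and -0.17 in these settings. The smallest p belonged to Pcdhb4 at 0.58 (SE 0.47, 95% interval -0.45 to 1.61), Pcdhb5 at 0.41 (SE 0.41) and Pcdhb8 at 0.35 (SE 0.38). Pcdhb5 measured 5.99, 6.49, 7.02, 5.12 and 7.41 in vehicle and 6.42, 7.01, 7.19, 6.74 and 6.68 in odor GFP- cells, so the odor samples lay inside the vehicle range.

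**Figure D4:**
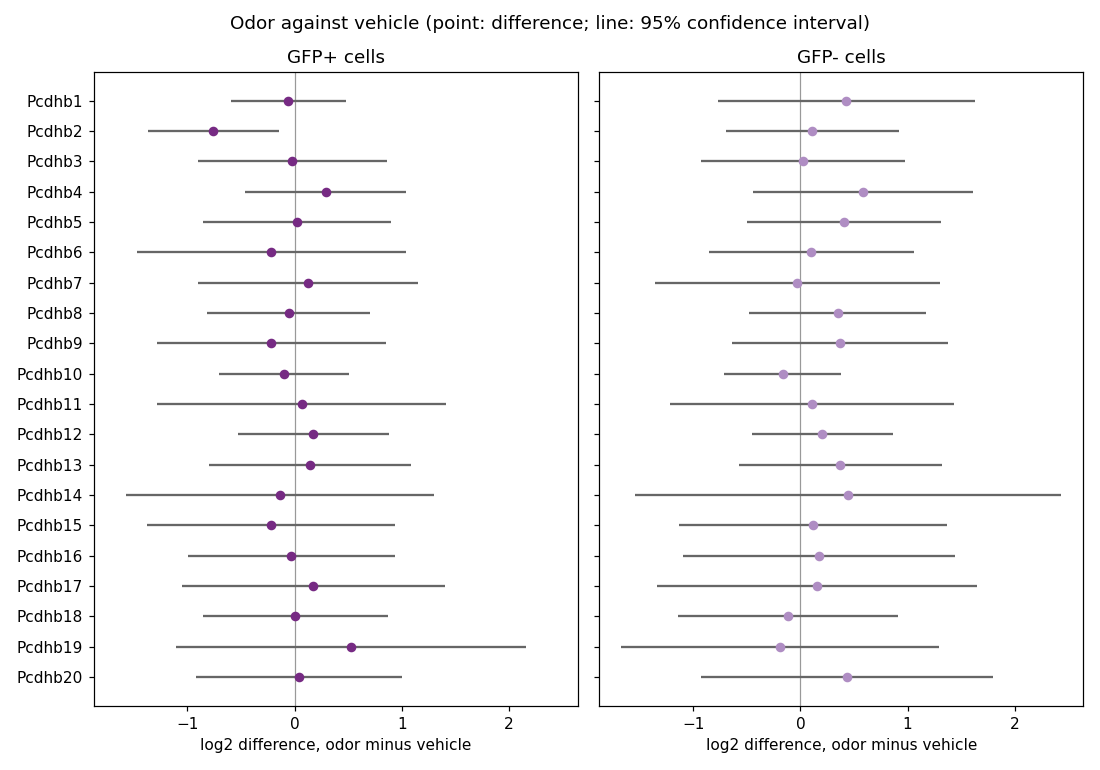
Odor minus vehicle log2 difference of each beta protocadherin in GFP+ cells on the left and GFP- cells on the right, from 5 samples per group. Points are the estimates and lines their 95% confidence intervals. The interval of Pcdhb2 in GFP+ cells, -1.37 to -0.14, is the only one of the 40 that leaves out 0.

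Genes that regulate the clusters or act with their products were followed as lists. Of 24 loop and silencing factors, which include CTCF, cohesin subunits and chromatin modifiers, 22 were measured and 0 passed in vehicle pools, with a median of 0.09, while in odor pools 1 was lower and the median was -0.13. Over all probe sets 5.82% were lower in odor pools. By pool the list median lay between -0.69 in vehicle pool 2 and 1.27 in vehicle pool 1. Smchd1, a chromatin protein that helps to silence the protocadherin clusters, was lower in GFP+ cells in all 5 odor pools, with a difference of -1.51 (SE 0.34, limma adjusted p = 0.0124), the 1 factor called there. That call was lost without odor pool 3, 4 or 5, without both pools numbered 5 and without the pairing of fractions, with limma adjusted p of 0.0517 to 0.0709. In vehicle pools its difference was -0.98 (SE 0.34, limma adjusted p = 0.113), but it was called at -1.46 (limma adjusted p = 0.00073) without vehicle pool 1, at -1.49 (limma adjusted p = 0.0016) without the 3 pools of the least correlated arrays and at -1.47 (limma adjusted p = 0.001) with array weights. The change between conditions, -0.53 (SE 0.48), did not pass. Ctcf itself differed by 0.16 (SE 0.46) in each condition. The cohesin subunit Stag1 and the heterochromatin protein gene Cbx5 each differed by -0.57 in vehicle pools, and Atf7ip, a partner of the methyltransferase that silences by histone H3 lysine 9 methylation, by -0.42. Atf7ip was called without vehicle pool 1, at -0.81 (limma adjusted p = 0.0302).

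The next list holds partners of clustered protocadherin cytoplasmic domains, and proteases. Beta proteins lack the tail common to alpha and gamma proteins, and whether these partners act with beta proteins was not tested. Among 22 listed, 19 were measured, 3 were lower in GFP+ cells in vehicle pools, where 6.86% of all probe sets were, and 1 in odor pools, beside 5.82%. Marcks, a substrate of protein kinase C that ties signals to the actin cytoskeleton, was lower in 10 of 10 pools. Its difference was -2.37 (SE 0.32, limma adjusted p = 0.00018) in vehicle and -2.42 (SE 0.32, limma adjusted p = 0.00017) in odor pools. Ptk2b, a focal adhesion kinase, was called at -1.10 (SE 0.30, limma adjusted p = 0.0331) but was under background in every vehicle sample, and 9 of 17 alternatives ended the call, among them quantile normalization, centring and leaving out any of vehicle pools 2 to 5. Rac1, a small GTPase of the actin cytoskeleton, was called at -0.86 (SE 0.25, limma adjusted p = 0.0497), and 14 of 18 alternatives ended that call, among them centring, array weights, an intensity trend and leaving out any of vehicle pools 2 to 5. Adam10, a protease that sheds protocadherin ectodomains, differed by -0.67 (limma adjusted p = 0.244). It was called at -1.06 (limma adjusted p = 0.0044) without vehicle pool 1, at -0.95 (limma adjusted p = 0.0136) without the 3 pools and at -0.91 (limma adjusted p = 0.0143) with array weights. All 10 white blood cell markers and 4 of 10 immature neuron markers were called lower in GFP+ cells in both conditions, as given above. Other immature neuron markers had positive estimates in vehicle pools, namely Ncam1 at 0.58, Dcx at 0.47, Tubb3 at 0.41 and Crmp1 at 0.13. The part of both lists in these differences was not tested.

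Of 12 non-clustered protocadherins, which lie outside the arrays and are single genes, 11 were measured and Pcdh8 was called as higher in GFP+ cells in both conditions, beside 2.26% and 2.07% of all probe sets. Pcdh8, an activity-regulated adhesion protein also named arcadlin, was higher in 10 of 10 pools, by 1.47 (SE 0.31, limma adjusted p = 0.0071) in vehicle and 1.32 (SE 0.31, limma adjusted p = 0.0163) in odor pools. Its vehicle means were 10.45 ± 0.71 (SD, n = 5) in GFP+ and 8.98 ± 1.15 in GFP- cells, and without the pairing of fractions the limma adjusted p was 0.353. In odor pools the call was lost without odor pool 2, 3 or 4, without both pools numbered 5 (limma adjusted p of 0.0553 to 0.0828) and without the pairing (0.571). Pcdh7 was also higher in 10 of 10 pools, at 1.52 (SE 0.53, limma adjusted p = 0.111) in vehicle pools. It was called at 0.89 (limma adjusted p = 0.0367) without the 3 pools of the least correlated arrays and at 1.88 (limma adjusted p = 0.049) without vehicle pool 2. Pcdh10, a protocadherin known from olfactory axon sorting, differed by 1.52 (SE 0.49, limma adjusted p = 0.0799), and was called with centred arrays (1.76, limma adjusted p = 0.0399), without the 3 pools (1.29, limma adjusted p = 0.0343) and without vehicle pool 2 (2.00, limma adjusted p = 0.0152). Pcdh1 differed by 0.73 (SE 0.48). Of 9 Fat, Dachsous and Celsr cadherins, giant relatives known for planar cell polarity, 8 were measured and 0 passed in either condition. In vehicle pools Celsr2 differed by 0.27, Celsr1 by -0.26, Fat1 by 0.13 and Celsr3 by -0.13.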

How the data were processed

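Per the labels' protocols, biotinylated cRNA from 50 to 100 ng of total RNA of 20 sorted samples was hybridised to Clariom S mouse arrays. Per the submitters' processing notes, Affymetrix Expression Console was used, with version, normalization and summarization not given in the sources used here. Values deposited for each probe set are on a log2 scale, judged by their range, and no further normalization was applied. Of 28846 rows, 6640 were controls and not tested, and 22206 gene probe sets were tested without a filter, of which 19572 had 1 symbol, none had several and 2634 had none. Gene names came from the platform annotation.

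Tests used limma 3.58.1 in R 4.3.3 (lmFit, eBayes) with Benjamini-Hochberg adjustment over 22206 probe sets at 0.05. GFP+ minus GFP- differences of the 10 pools entered 1 fit, which gave the 2 sort differences and the odor effect on them. The labels' counts of mice are the basis for pairing GFP+ with GFP- samples of 1 condition and number. Odor was compared with vehicle on the 10 samples of each fraction. Nothing in the labels ties pools to separate cultures or days, and p-values measure the spread between pools of 3 mice. The code was tested on simulated data. 

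Replicate numbers recur in both conditions. Deviations from the group means of equally numbered odor and vehicle samples correlated in GFP+ cells at 0.25, 0.52, 0.35, 0.16 and 0.86. All lay above the limit of 0.1 set for pairing. Even so, the odor tests in GFP+ cells given above did not use this pairing, which entered only as an alternative with a replicate block. For GFP- cells the correlation of number 2 was -0.38, and the pool differences gave -0.31, -0.48, 0.16, -0.14 and 0.21, so the limit was not met there. 

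The members, the gene lists and the rule for named genes were chosen with earlier results of these data known. That rule names members past the threshold, the 5 with the largest vehicle sort difference among those above background in all 5 samples of a group, the 3 smallest p in each odor comparison, up to 4 genes of each pathway list, and S100a5 and Omp. Pcdhb5 and Pcdhb2 in the vehicle sort, Pcdhb7, Pcdhb15 and other members named by their counts, and Ctcf, were added after their values were seen.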

Additional observations from a re-analysis of the deposited data

Results flagged for a closer look

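In 11 of 80 sets of 5 samples, 1 sample stood apart from the other 4 by Dixon's test. Chance does this in about 1 of 20 independent sets. These sets share the same 20 arrays, so their count cannot be judged against that rate. In 9 of the 11 this was the replicate 5 array, whose median signal over all probe sets was also raised. In odor GFP+ cells replicate 5 was the highest for Pcdhb6 at 7.31, Pcdhb7 at 8.19, Pcdhb9 at 9.57, Pcdhb11 at 9.06, Pcdhb16 at 9.44 and Pcdhb20 at 10.48. It was also the highest for Pcdhb7 at 7.99 in vehicle GFP+ cells, and for Pcdhb7 at 7.97 and Pcdhb11 at 8.40 in vehicle GFP- cells. In vehicle GFP- cells Pcdhb10 was highest in replicate 2 at 4.71, and Pcdhb18 lowest in replicate 1 at 5.27.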

How the results depend on the processing

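In vehicle pools the 1 member called became 2 when arrays were centred, where 1169 of 22206 probe sets were called higher and 1211 lower. The count was 0 without both pools numbered 5 (338 higher and 1145 lower over all probe sets). It was also 0 with no replicate block of fractions within a pool (219 and 979) and without the 3 pools of the least correlated arrays (570 and 1685). Leaving out 1 pool gave 0 to 5, and the counts over all probe sets without vehicle pool 1 or 2 are given above. In odor pools array weights gave 1 in place of 0, beside 1392 of all probe sets called higher and 1974 lower. No setting called a member in the 3 comparisons of odor with vehicle. A replicate block of same-numbered odor and vehicle samples changed no call among the members and left 0 called. Every probe set of a symbol gave the same result, since each member has 1.

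For members above background in every sample, the highest control row of 8 to 18 G or C bases gave 16 in vehicle GFP+, 16 in vehicle GFP-, 19 in odor GFP+ and 18 in odor GFP- cells, and the median row gave 9, 15 and 13 in the last 3. Leaving out 1 vehicle GFP- sample gave 1 to 7.

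Some estimates that did not pass changed sign. In odor pools Pcdhb2 was 0.024 after quantile normalization, 0.10 centred and 0.027 without the 3 pools, and Pcdhb8 was 0.0065, 0.20 and 0.16. Pcdhb15 was -0.14 without the 3 pools and Pcdhb9 -0.0014 without pools numbered 5. Leaving out 1 pool gave -0.23 to 0.027 for Pcdhb2, -0.24 to 0.16 for Pcdhb8, -0.14 to 0.31 for Pcdhb15 and -0.0014 to 0.10 for Pcdhb9. In vehicle pools Pcdhb19 was -0.16 without pools numbered 5, Celsr3 0.11 centred, Celsr2 -0.0094 with array weights, and Fat1 -0.33 with array weights and -0.11 without the 3 pools. Leaving out 1 pool there gave -0.19 to 0.61 for Pcdhb19, -0.076 to 0.76 for Pcdhb18, -0.52 to 0.12 for Celsr3, -0.10 to 0.53 for Celsr2, -0.56 to 0.64 for Fat1 and -0.021 to 0.38 for Omp. In GFP+ cells under odor Pcdhb19 was -0.18 and Pcdhb4 -0.011 without the 3 pools, and Pcdhb19 ran from -0.11 to 1.11 leaving out 1 replicate. The causes were not tested. Signal lay above the 95th percentile of the control rows in all 20 samples for 1 member and in no sample for 4. Against the highest control row of 8 to 18 G or C bases, 14 members were above in all 20.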
